A study of Mus musculus with 6 samples.

Results

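The nuclear genes of the mitochondrial ribosome were compared between libraries from brain tissue of adult male mice with high and with low sexual motivation. All genes of the deposited table whose symbol begins with Mrpl or Mrps followed by a digit were taken, which gave 77 of 13170 genes, 48 with Mrpl and 29 with Mrps symbols, and no pseudogene symbol among them. The 6 libraries were made from poly(A)-selected RNA of C57 mice, 3 labelled as the group of high and 3 as the group of low sexual motivation, with no treatment, transgene or engineered allele named for either. The labels name the tissue in more than 1 way, as medial amygdala in the title, MeA in the design text, PrL in the extraction protocol and brain in the tissue field. The age in weeks, the scoring of sexual motivation, and whether a library came from 1 animal or from pooled animals are not stated in the sources. A p-value here therefore measures no more than the variation among these 6 libraries, part of which may be technical.

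Mitochondria keep a ribosome of their own, which descends from that of bacteria and translates the few proteins encoded by mitochondrial DNA, all of them subunits of the respiratory chain and of ATP synthase in the inner membrane. Its rRNA is transcribed from mitochondrial DNA, whereas its proteins are encoded in the nucleus, made in the cytosol and imported. Some of these proteins have a bacterial counterpart (names beginning with u or b in the current nomenclature, such as uL22m), and others were added in the mitochondrial lineage (names beginning with m, such as mL41). In neurons, this ribosome supplies core subunits for the oxidative phosphorylation on which synaptic activity depends. The symbols do not always tell the subunit: Mrps30 (mL65) and Mrps18a (mL66) sit in the large subunit, and Mrps36, now called Kgd4, is a component of the oxoglutarate dehydrogenase complex and not a ribosomal protein. By current nomenclature the 77 genes were therefore 50 of the large subunit, 26 of the small subunit and Mrps36.

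Stretches of 30 bases around promoter motifs are shown for genes on which the comparisons below turn: those with a motif whose groups of libraries did not overlap, the 3 relatives of bacterial S18, and Mrps27, the 1 gene with motifs of more than 1 kind. The sequences are from RefSeq (GRCm38.p6), read 5′ to 3′ on the strand of the gene, with the motif in capitals. Of the 77 genes, 68 had an entry among the RefSeq promoter windows, which run from 250 bases before to 50 bases after the annotated start.
Mrpl22: gcctcggactgCGCATGCGtatagtcagcc
Mrpl9: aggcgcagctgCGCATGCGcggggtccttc
Mrps18b: aaacggcccgaCGCATGCGcactgggagca
Mrpl48: gggttttaaaaACTTCCGGaaccaagatgc
Mrps18c: cgggtcacgtgACTTCCGGcccgggaagcg
Mrps27, first stretch: gtggtaggaccACTTCCGGcggaggcgggc
Mrps27, other stretch: ggtgcgctccAAGATGGCGgctcccatggt
Mrps18a: ggtgcgttccAAGATGGCGgccctcagggc
The capitals in Mrpl22 (chr11:58171621-58171650), Mrpl9 (chr3:94443298-94443327) and Mrps18b (chr17:35916646-35916675, minus strand) are the core CGCATGCG of the site of NRF1, the nuclear respiratory factor 1, which reads the same on both strands. In Mrpl48 (chr7:100583147-100583176, minus strand), Mrps18c (chr5:100798591-100798620) and the first stretch of Mrps27 (chr13:99344726-99344755) they are ACTTCCGG, the reverse complement of CCGGAAGT, the site of ETS factors such as GABPA. In the other stretch of Mrps27 (chr13:99344790-99344819) and in Mrps18a (chr17:46111005-46111034) they are AAGATGGCG, a site of YY1. The first base of the motif lay at −32 from the start in Mrpl22, at −27 in Mrpl9 and at 11, inside the transcript, in Mrps18a. Mrpl48 has 4 promoter entries. Its stretch belongs to a start inside the gene, which runs from chr7:100608301 on the minus strand in the GENCODE M21 annotation. A gene with several entries was counted once if any of them held the motif.

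Each motif was more frequent in these promoters than in the promoters of all 10263 genes of the deposited table with an entry, when both strands were searched. The NRF1 core stood in 7 of 68 (10.3%, against 4.2% of all), the ETS site in 12 (17.6%, against 8.53%) and the YY1 site, CGCCATCTT on the other strand, in 8 (11.8%, against 3.4%). At least 1 of the 3 was present in 26 of 68 (38.2%, against 15.1%), and Mrps27 held 2 of them, at −49 and at 14 from its start. The median GC content of the windows was 58% for these genes and 61% for all. A match is a description of the sequence, and binding of the factors was not measured. In the comparison of the groups, which was not tested between motifs, the median log2 difference, high minus low, was 0.043 for the 7 genes with the NRF1 core (4 higher and 3 lower), 0.046 for the 12 with the ETS site (7 and 5), 0.021 for the 8 with the YY1 site (4 and 4), and 0.054 for the 42 with none of the 3 (27 and 15).

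Expression was measured as FPKM, fragments per length of transcript and per depth of library, so that levels can be set side by side between genes. All 77 genes exceeded a mean of 1 FPKM over the 6 libraries, the level required for testing. They spanned a 31.4-fold range, although most of them fell in a narrow band: 48 genes lay within 5 to 20 FPKM, 18 below and 11 above. Their median was 10.9 FPKM, against 7.25 for all 12026 genes tested. The median was 12.2 in the large subunit and 8.29 in the small subunit, where the 16 genes with a bacterial counterpart had 9.90 and the 10 others 5.04.

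The highest level was that of Mrpl41 (mL41, a protein of the large subunit with no bacterial counterpart), at 41.5, 48.6 and 43.5 FPKM in high libraries 1 to 3 and 43.1, 40.9 and 36.7 in low libraries 1 to 3. Next came 2 genes of the small subunit. Mrps21 (bS21m) had 30.2, 35.3 and 31.98 in the high and 28.2, 31.6 and 32.2 in the low libraries, and Mrps12 (uS12m, at the decoding centre) had 24.4, 32.7 and 29.1 in the high and 26.5, 23.4 and 27.3 in the low libraries. The groups overlapped in each of these 3 genes. At the lower end stood Mrpl33 (bL33m), with 1.01, 1.25 and 1.71 FPKM in the high and 1.45, 1.37 and 1.31 in the low libraries, Mrps35 (mS35), with 1.998, 2.53 and 2.32 in the high and 2.03, 1.96 and 2.25 in the low libraries, and Mrps30. In Mrpl33 the high libraries spread more widely (SD 0.352) than the low ones (SD 0.0708). The order of levels was nearly the same in both groups, with a Spearman rho of 0.988 between group means over the 77 genes, which share libraries. Longer transcripts tended to have lower FPKM (rho −0.354 over the 77 genes). Within groups the libraries differed by a median coefficient of variation of 7.88%, from 1.24% in Mrps18a to 23.1% in Mrps34.

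**Figure D1:**
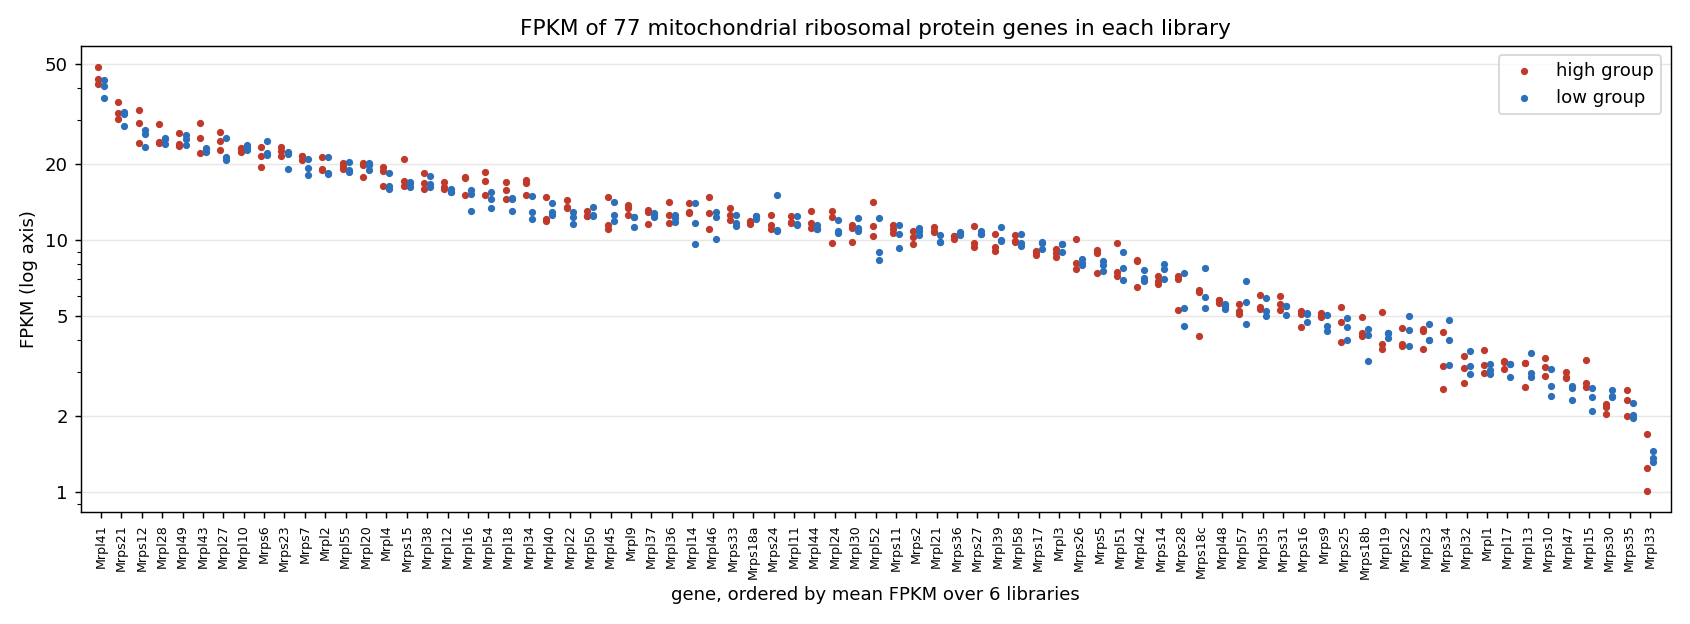
FPKM on a log axis of the 77 genes in each library, ordered by the mean over 6 libraries, with the high group in red and the low group in blue. Most genes lie between 5 and 20 FPKM, and the points of the groups intermingle for most genes.

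No mitochondrial ribosomal protein gene passed the test for a difference between the groups. By limma on log2(FPKM + 1), with Benjamini-Hochberg adjustment over all 12026 genes, 0 of 77 had an adjusted p under 0.05, where the share over all genes tested was 0%, and their smallest adjusted p was 0.553. At an unadjusted p under 0.05 there were 2 of the 77, Mrpl34 and Mrpl22, against 8.39% of all genes. In tissue RNA, fewer cells of a type and less RNA per cell cannot be told apart. A log2 difference had a median standard error of 0.0833 over the 77 genes. Its 95% interval, which takes each gene alone, reached a median of 0.192 to either side. Differences smaller than that were in general not detectable with 3 libraries a group. Larger ones could also be missed after adjustment over all genes, as Mrpl34, with a difference of 0.283, did not pass.

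The differences were small and more of them were positive. In the high group 48 genes (62.3%) had the higher mean of log2(FPKM + 1) and 29 the lower, where 50.1% of all genes tested were higher. The median log2 difference was 0.051, with quartiles of −0.030 and 0.109, against 0.000 for all genes, with quartiles of −0.086 and 0.075. A difference beyond 0.2 in either direction was seen in 5 genes, and the largest was 0.28. The log2(FPKM + 1) scale understates the differences of genes with low FPKM. This median depended on single libraries: it was 0.023 without low library 1 and 0.025 without high library 2, and 41 genes were higher without high library 2 and 56 without high library 1.

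**Figure D2:**
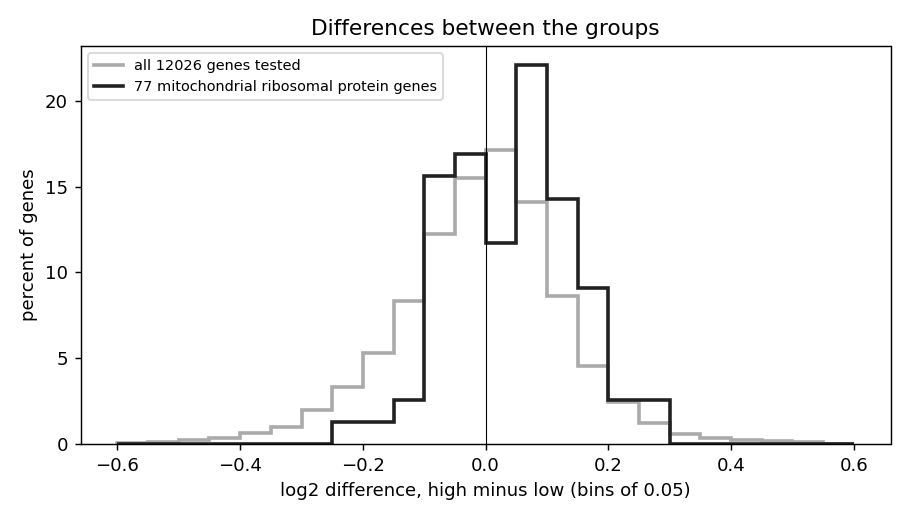
Percent of genes (vertical axis) by log2 difference, high minus low, in bins of 0.05, for the 77 genes (black) and for all 12026 genes tested (grey), with 125 of the latter outside the axis. The black outline lies mostly within 0.2 of 0 on either side, with its median at 0.051.

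In 12 genes all libraries of 1 group lay above all libraries of the other. They were 8 genes that were higher in the high group, where 7.33% of all genes tested were separated in that direction, and 4 that were lower, where 7.61% were. Together these are 15.6% of the 77 genes and 14.9% of all genes, so that the share is near the background. All 8 that were higher carry Mrpl symbols (of 48), and all 4 that were lower carry Mrps symbols (of 29), 2 of which belong to the large subunit and 1 of which is Mrps36. Whether the symbol groups differ in this was not tested.

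Mrpl34 (bL34m, a small protein that binds rRNA; chr8:71464959-71465747) had the smallest p of the 77. High libraries 1 to 3 had 17.3, 16.8 and 15.2 FPKM and low libraries 1 to 3 had 12.1, 14.96 and 12.95. The lowest high library thus lay just above low library 2, the highest of its group. The means were 16.4 ± 1.14 against 13.4 ± 1.45 (mean ± SD, n = 3, high against low, here and below), a ratio of 1.23, with a log2 difference of 0.28 (SE 0.0893, 95% interval 0.077 to 0.489), an unadjusted p of 0.0132 and an adjusted p of 0.553 by limma. Without low library 2 the difference was 0.36, and without low libraries 1 and 3, added after seeing the data, it was 0.125.

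Mrpl22 (uL22m, which lines the exit tunnel of the nascent chain; chr11:58171661-58179565) carries an NRF1 core, shown above. It had 13.4, 14.5 and 13.5 FPKM in the high and 12.9, 12.4 and 11.6 in the low libraries. The gap between the groups was narrow, since low library 1 came close to high library 1. The means were 13.8 ± 0.605 against 12.3 ± 0.637, with a log2 difference of 0.15 (SE 0.0667, 95% interval 0.000 to 0.308), an unadjusted p of 0.0494 and an adjusted p of 0.596 by limma.

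Other large subunit genes with separate groups had smaller or less precise differences. Mrpl9 (bL9m), with an NRF1 core, had 12.6, 13.5 and 13.8 FPKM in the high and 12.4, 11.3 and 12.4 in the low libraries (log2 difference 0.13, SE 0.068). Mrpl21 (bL21m) had 10.8, 11.3 and 10.7 against 10.5, 9.87 and 9.83 (log2 difference 0.11, SE 0.0619). In both genes the distance between the closest libraries of the groups was smaller than the SD within either group. Mrpl15 (uL15m; chr1:4773206-4785739) had 2.60, 3.34 and 2.70 in the high and 2.60, 2.38 and 2.10 in the low libraries (log2 difference 0.21, SE 0.104), and its separation rested on 2.601 in high library 1 against 2.597 in low library 1. Mrpl47 (uL29m, near the tunnel exit) had 2.82, 3.001 and 2.87 against 2.58, 2.64 and 2.33 (log2 difference 0.15, SE 0.0795), and 24.2% of its exonic bases overlap genes on the other strand. Mrpl48 (mL48), outside the rule for named genes and chosen after its values were seen, had 5.80, 5.76 and 5.63 against 5.32, 5.48 and 5.59 (log2 difference 0.059, SE 0.0641), the smallest difference of the 8. The adjusted p of these 5 genes by limma lay between 0.606 and 0.801.

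The stalk of the large subunit, which recruits translation factors, is built from the products of Mrpl10 (uL10m), Mrpl11 (uL11m) and Mrpl12 (bL12m). Mrpl12 was the only 1 of the 3 with separate groups, at 16.3, 15.97 and 17.1 FPKM in the high and 15.5, 15.5 and 15.9 in the low libraries (log2 difference 0.068, SE 0.0583; adjusted p = 0.745 by limma). Mrpl10 had 22.4, 23.2 and 23.01 against 23.9, 22.7 and 23.3 (log2 difference −0.027, SE 0.0562), and Mrpl11 had 11.7, 12.5 and 11.8 against 12.5, 11.4 and 11.6 (log2 difference 0.019, SE 0.0647). Their groups overlapped, and the 3 genes shared no direction. The difference of Mrpl11 was −0.002 in a fit that took out the trend on transcript GC content and length.

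Several large subunit genes had differences as large as these with overlapping groups. Mrpl52 (mL52) had 10.4, 14.1 and 11.4 FPKM in the high and 8.36, 12.3 and 8.94 in the low libraries, a log2 difference of 0.26 (SE 0.151) with the next largest size after Mrpl34. In both groups library 2 was the highest, and the difference was −0.046 without low libraries 1 and 3. Mrpl54 (mL54; chr10:81264713-81266934) had 15.04, 18.6 and 17.1 against 14.5, 15.6 and 13.5 (log2 difference 0.21, SE 0.0904; 95% interval −0.002 to 0.415; adjusted p = 0.596 by limma). Mrpl16 (uL16m) had means of 16.8 ± 1.49 against 14.7 ± 1.49 (log2 difference 0.19, SE 0.094), Mrpl18 (uL18m, of the central protuberance) 15.8 ± 1.25 against 14.1 ± 0.874 (log2 difference 0.15, SE 0.0784) and Mrpl41 44.5 ± 3.66 against 40.2 ± 3.26 (log2 difference 0.14, SE 0.0847). In the other direction stood Mrpl3 (uL3m, near the peptidyl transferase centre), at 8.89 ± 0.320 against 9.43 ± 0.402 (log2 difference −0.077, SE 0.065), Mrpl39 (mL39), at 9.67 ± 0.793 against 10.4 ± 0.754 (log2 difference −0.10, SE 0.0812), and Mrpl30 (uL30m), at 10.8 ± 0.903 against 11.4 ± 0.705 (log2 difference −0.075, SE 0.0799).

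**Figure D3:**
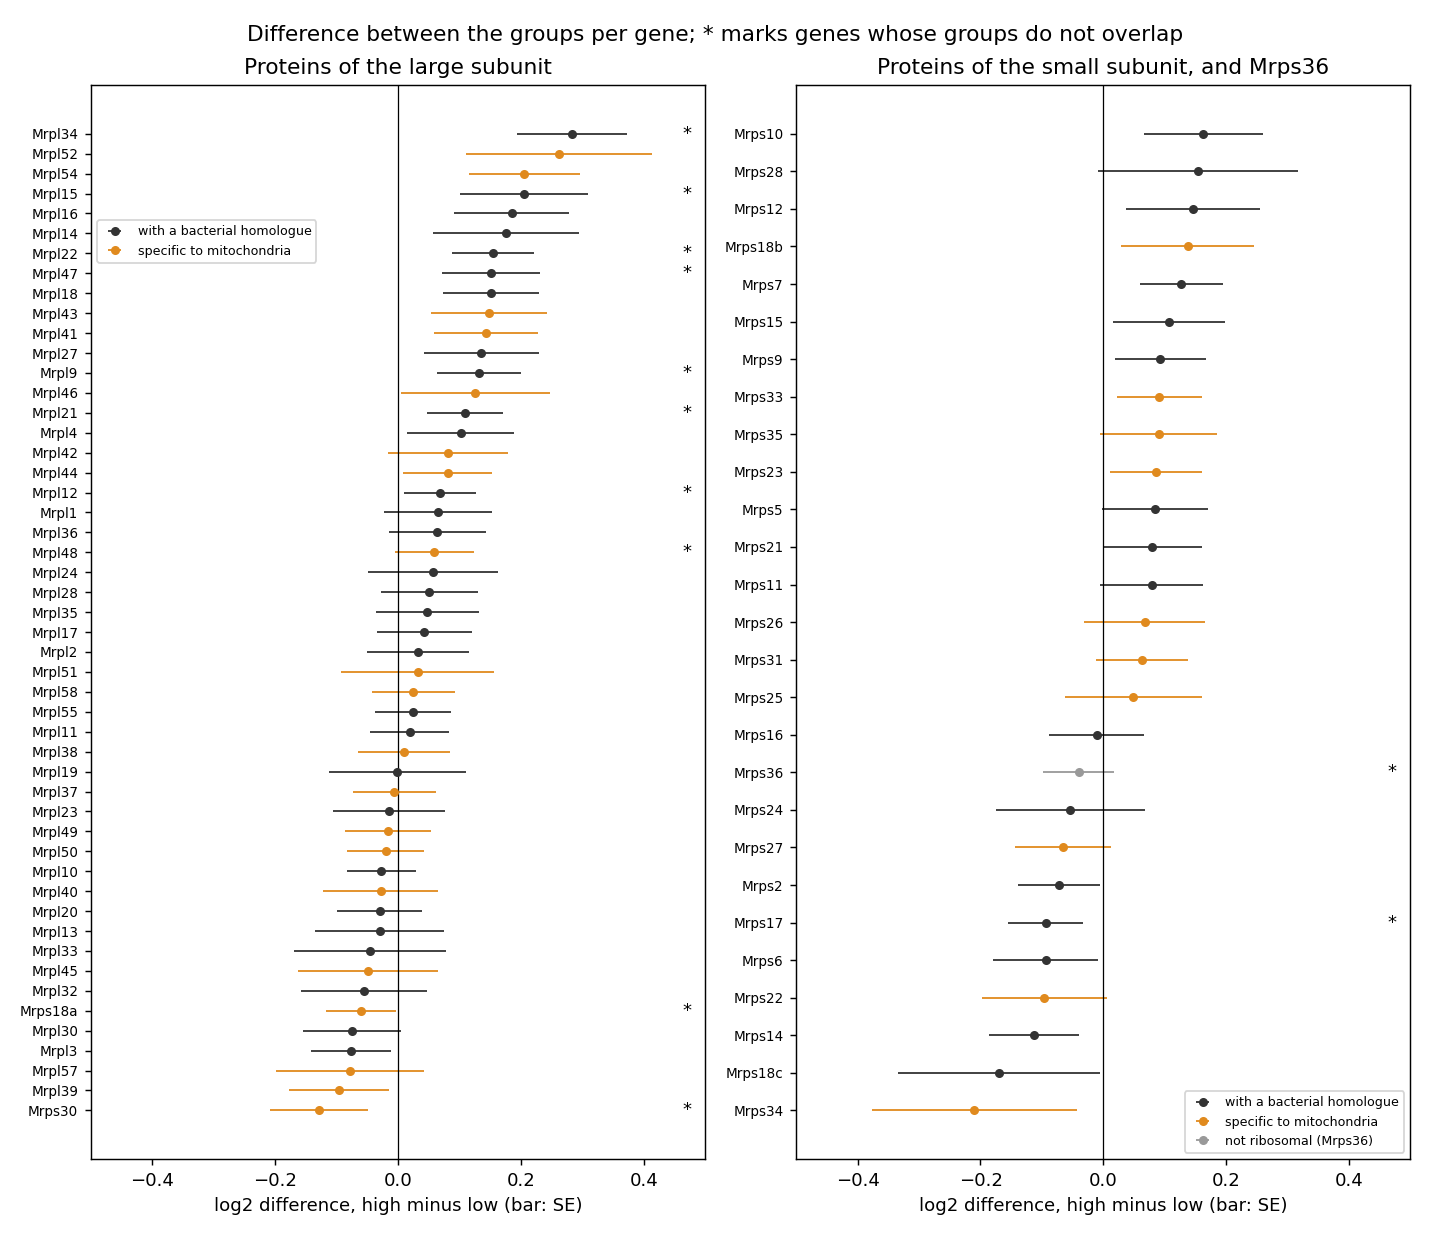
Log2 difference, high minus low, with its standard error, for each gene of the large subunit (left) and of the small subunit with Mrps36 (right), coloured by whether the protein has a bacterial counterpart, with an asterisk where the groups do not overlap. The largest is Mrpl34 at 0.28 and the lowest is Mrps34 at −0.21, and most error bars reach or approach 0.

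Over the large subunit, 32 genes were higher and 18 lower, with a median log2 difference of 0.046. Groups were separate in 8 higher and 2 lower genes, or 20% of the subunit, where 14.9% of all genes tested were. Its 30 genes with a bacterial counterpart were higher in 21 and had separate groups in 7, all higher (23.3%; median 0.054). Its 20 other genes were higher in 11, with 1 separate higher and 2 lower (15% in all; median 0.017). In the small subunit 16 genes were higher and 10 lower, with 0 separate higher and 1 lower (3.85% in all), and a median of 0.073. There the genes with a bacterial counterpart were 9 higher and 7 lower (median 0.079) and the others 7 higher and 3 lower (median 0.065). The difference between the subunits was not tested.

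The genes lower in the high group with separate groups had small differences. Mrps30 (mL65; chr13:118378381-118387252) had 2.18, 2.04 and 2.24 FPKM in the high and 2.55, 2.41 and 2.38 in the low libraries. Its means were 2.16 ± 0.101 against 2.45 ± 0.0902, with a log2 difference of −0.13 (SE 0.0798, 95% interval −0.313 to 0.056; adjusted p = 0.664 by limma). After removal of the trend on GC content and length its difference was −0.045. Mrps17 (uS17m, an rRNA-binding protein) had 8.97, 8.76 and 9.02 in the high and 9.20, 9.75 and 9.80 in the low libraries (log2 difference −0.094, SE 0.0612; adjusted p = 0.678 by limma), and it was the 1 small subunit gene with separate groups. Mrps36, named here although it fell outside the rule for named genes and was chosen after its values were seen, had 10.40, 10.41 and 10.11 against 10.65, 10.78 and 10.44 (log2 difference −0.040, SE 0.0581).

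Mrps18a, Mrps18b and Mrps18c descend from the same bacterial protein, S18, and are used at different places: Mrps18c (bS18m) at the site of S18 in the small subunit, Mrps18b (mS40) elsewhere in that subunit, and Mrps18a in the large subunit. By their current names, Mrps18a and Mrps18b were counted with the proteins that have no bacterial counterpart. Mrps18a (chr17:46110986-46128910) had 11.93, 11.62 and 11.81 FPKM in the high and 12.42, 12.41 and 12.17 in the low libraries. These were the tightest libraries of any of the 77 genes, and the means, 11.8 ± 0.154 against 12.3 ± 0.144, differed by a ratio of 0.956 (log2 difference −0.060, SE 0.0567; 95% interval −0.191 to 0.070; adjusted p = 0.766 by limma). Mrps18b (chr17:35910379-35916389) had 4.29, 4.96 and 4.15 against 3.32, 4.21 and 4.43 (log2 difference 0.14, SE 0.108), with 30.5% of its exonic bases overlapped on the other strand. Mrps18c (chr5:100798627-100804471) had 6.32, 4.16 and 6.20 against 5.36, 7.76 and 5.94 (log2 difference −0.17, SE 0.164). For both the groups overlapped, and the lowest of the 6 libraries was low library 1 for Mrps18b and high library 2 for Mrps18c. The motifs shown above differ among the 3 as well, with a YY1 site in Mrps18a, an NRF1 core in Mrps18b and an ETS site in Mrps18c. Their first bases lay at 11, −224 and −157 from the RefSeq start. Ppp1r10, on the other strand, starts 45 bases from Mrps18b in the GENCODE M21 annotation, and the NRF1 core lies beyond that start. The site of Mrps18c lies just before the GENCODE M21 start of this gene. Which gene a site serves was not tested.

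**Figure D4:**
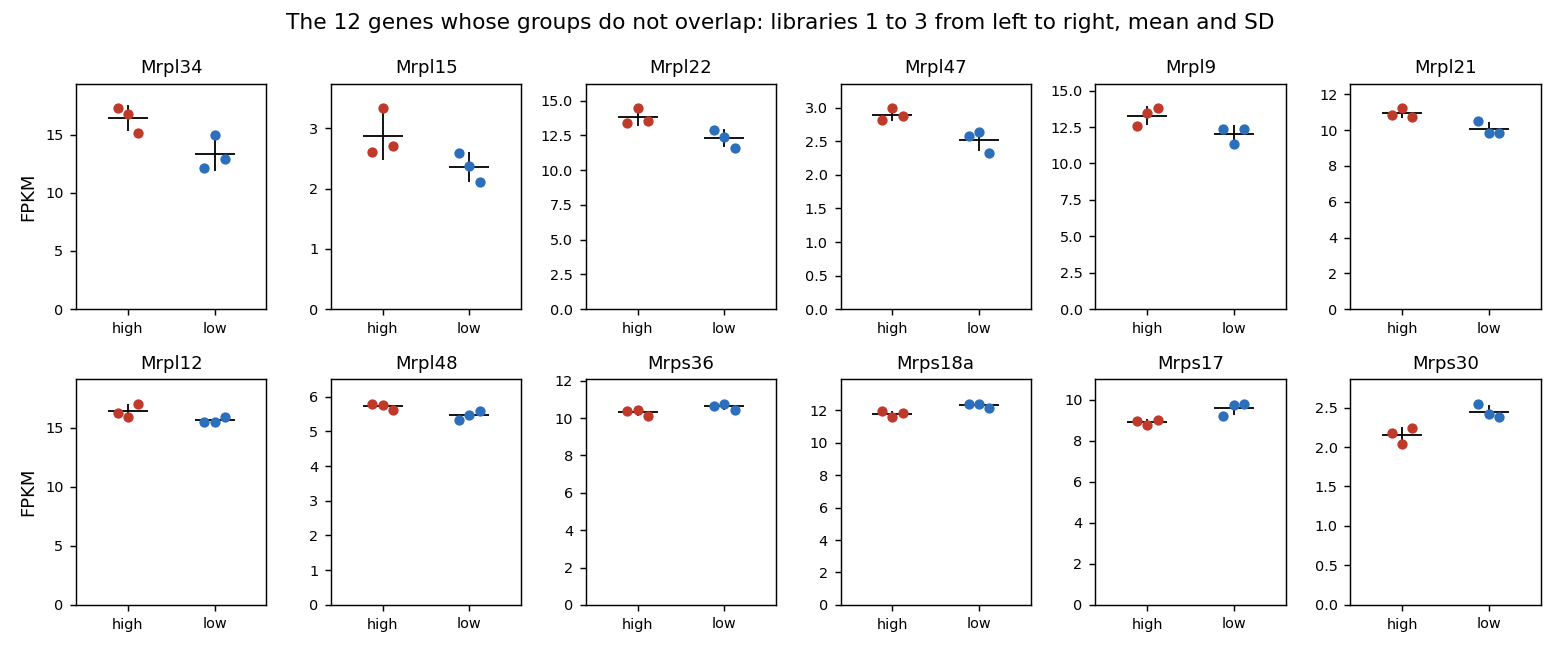
FPKM in each library (axes from 0) of the 12 genes whose groups do not overlap, with mean and SD of each group, high in red and low in blue. The upper 6 and Mrpl12 and Mrpl48 are higher in the high libraries and Mrps36, Mrps18a, Mrps17 and Mrps30 are lower, with the gap between the groups narrow in each.

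In the other genes of the small subunit described here the groups overlapped. Mrps7 (uS7m, in the head of the subunit) had 21.5, 20.8 and 21.7 FPKM in the high and 19.4, 18.1 and 20.9 in the low libraries (log2 difference 0.13, SE 0.0677; adjusted p = 0.618 by limma). Only low library 3 reached into the range of the high group. Mrps12 had means of 28.7 ± 4.18 against 25.8 ± 2.04 (log2 difference 0.15, SE 0.109). Mrps10 (uS10m), which fell outside the rule for named genes, had the largest positive difference of the small subunit, with means of 3.14 ± 0.246 against 2.70 ± 0.341 (log2 difference 0.16, SE 0.0963; adjusted p = 0.654 by limma). Lower means in the high group were those of Mrps14 (uS14m), at 6.93 ± 0.285 against 7.58 ± 0.535 (log2 difference −0.11, SE 0.0734), Mrps6 (bS6m), at 21.5 ± 1.995 against 22.9 ± 1.67 (log2 difference −0.094, SE 0.085), Mrps2 (uS2m), at 10.3 ± 0.594 against 10.8 ± 0.331 (log2 difference −0.072, SE 0.0668), and Mrps22 (mS22), at 4.04 ± 0.363 against 4.41 ± 0.595 (log2 difference −0.10, SE 0.102). Mrps34 (mS34) had the lowest difference of all and the widest spread, with 3.16, 4.33 and 2.57 against 4.81, 3.21 and 4.02 (log2 difference −0.21, SE 0.167). Of its exonic bases 63.4% overlap genes on the other strand, and its difference was 0.031 without low libraries 1 and 3.

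The library preparation keeps the strand of the RNA, while the sources do not state whether counting made use of it. Exons of 27 of the 77 genes overlap a gene on the other strand in the GENCODE M21 annotation (GRCm38), by over 20% of their exonic bases in 8, Mrps25 having the most (69.8%). The 27 were 19 higher and 8 lower (median 0.067), with 5 separate higher and 1 lower, or 22.2%. The 50 without such overlap were 29 higher and 21 lower (median 0.033), with 3 separate in each direction, or 12%. Of all genes tested 14.9% were separate, and the difference between the 27 and the 50 was not tested.

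The authors' deposited table gives an unadjusted p under 0.05 to 8 of the 77 genes, of which 5 were higher and 3 lower, against 7.4% of all 13170 genes. The smallest among the 77 in the authors' deposited table was that of Mrps18a, 0.011, followed by 0.02 for Mrps30 and 0.0241 for Mrpl47. That p comes from an equal-variance test on untransformed FPKM that takes the spread of each gene alone, with no trend over genes. After Benjamini-Hochberg adjustment of the authors' deposited p-values, the smallest over the 77 was 0.618 and 0 of all genes were under 0.05.

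The libraries did not sort by group over these genes as a whole. Summed over the 77 genes, high libraries 1 to 3 had 882, 972 and 930 FPKM and low libraries 1 to 3 had 874, 897 and 897. High library 1 fell among the low libraries. The median deviation of the 77 genes from the mean of the 6 libraries was −0.038, 0.067 and 0.040 on the log2 scale in the high and −0.032, −0.002 and −0.009 in the low libraries. High library 2 held the highest of the 6 values in 31 genes (40.3%, against 22.8% of all genes tested) and the lowest in 9. The lowest value of all genes lay in high library 2 in 23.4%, against 11.7% of the 77. Low library 1 held the lowest value in 18 of the 77 (23.4%, against 13.5% of all genes) and high library 1 in 15 (19.5%, against 12.7%). The first principal component of the 77 genes, with 38% of their variance, had scores of −0.295, 1.24 and 0.233 in the high and −0.653, −0.214 and −0.309 in the low libraries, and thus set high library 2 apart.

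High library 2 also stood apart in transcripts of the mitochondrial genome. Their share of all FPKM was 11.1% in it and 13.6% to 16.4% in the other 5. The 13 mitochondrially encoded transcripts had median deviations of 0.128, −0.659 and 0.248 in the high and −0.060, 0.089 and 0.029 in the low libraries, so high library 2 was lowest for these transcripts. It was highest for the ribosomal protein genes of mitochondria, and also for nuclear-encoded respiratory chain subunit genes (median deviation 0.089, highest value in 45% of them). Cytosolic ribosomal protein genes had their highest value there in 30.8%, and in high library 3 in 33.3%. FPKM is relative to the total of a library, which includes these transcripts. A scaling to all genes outside the mitochondrial genome gave the 77 genes a median difference of 0.043, against −0.007 for all genes tested. With it 48 of the 77 were higher and 8 had separate groups (10.4%, against 14.4% of all genes). The relative depth of high library 2 was also the greatest, 1.21 times the mean over libraries, where the others lay between 0.871 and 1.14.

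**Figure D5:**
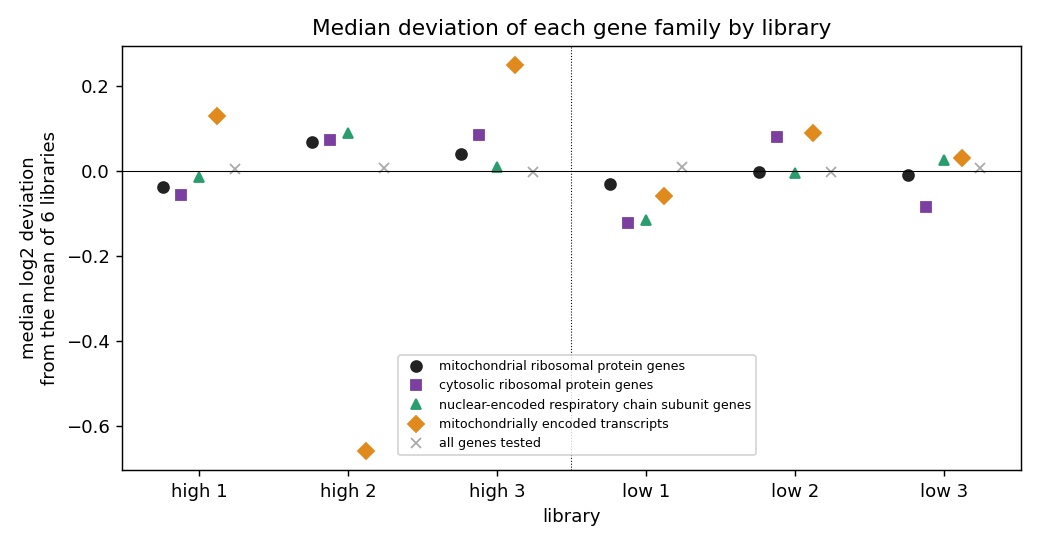
Median log2 deviation from the mean of 6 libraries (vertical axis) of 4 gene families and of all genes tested, by library. The mitochondrial ribosomal protein genes (black circles) stay between −0.038 and 0.067, while the mitochondrially encoded transcripts (orange diamonds) reach −0.659 in high library 2.

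Other families that build or use mitochondria and ribosomes gave side-by-side values, with no test between families. The 78 tested cytosolic ribosomal protein genes were 67 higher (85.9%) and 11 lower, with 5 separate higher and 1 lower (7.69%, against 14.9% of all genes) and a median of 0.080, at a median level of 53.5 FPKM. The 80 genes of nuclear-encoded respiratory chain subunits were 62 higher (77.5%) and 18 lower, with 4 separate higher and 0 lower (5%) and a median of 0.050. The 13 mitochondrially encoded transcripts were 3 higher and 10 lower, with a median of −0.088. The share of higher genes among the mitochondrial ribosomal protein genes, 62.3%, was thus below that of both nuclear-encoded families. By limma 0 genes passed in any of the 4 families. An unadjusted p under 0.05 was found for 3 cytosolic ribosomal, 2 respiratory chain and 0 mitochondrially encoded genes, against 8.39% of all genes tested.

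Transcript composition varied with these differences. Over the 77 genes the log2 difference had a Spearman rho of 0.307 with the GC content of the transcript and of −0.191 with its length, and over 11924 genes the values were 0.381 and −0.179. These correlations run across genes that share the 6 libraries. After removal of a trend on GC content and length from each library, the median of the 77 genes was 0.051, against 0.007 for all genes. Before removal the values were 0.051 and 0.000. After it 49 of the 77 were higher, and 11 (14.3%, against 13.2% of all genes) had separate groups in either direction.

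Other genes of mitochondrial translation were examined in 6 lists, and 0 genes of any list passed the test by limma. An unadjusted p under 0.05 was found for Lars2, Mars2 and Gatc, 3 genes in the list of tRNA charging. It was also found for 1 gene in each of the lists of structural proteins, DNA transcription and replication, and regulators. The other 2 lists held 0 such genes, and of all genes tested 8.39% had such a p. Of the 7 tested structural proteins under other symbols, 4 were higher and 3 lower (median 0.025). Dap3, a GTP-binding protein of the small subunit, had 10.04 ± 0.107 against 10.1 ± 0.111 FPKM, Ptcd3 5.69 ± 0.510 against 5.98 ± 0.335, Chchd1 17.5 ± 1.58 against 17.1 ± 2.79, Aurkaip1 27.3 ± 1.46 against 25.3 ± 1.14 and Gadd45gip1 3.91 ± 0.243 against 3.82 ± 0.217, all with overlapping groups. Lactb, listed through an older name that counts it as a ribosomal protein, encodes a filament-forming protein of the space between the membranes and was lower in each high library, at 5.37, 6.20 and 5.72 against 7.03, 6.53 and 7.15 (log2 difference −0.22, SE 0.0753; adjusted p = 0.564 by limma). The genes once called Mrp63 and Ict1 are in the table as Mrpl57 and Mrpl58 and were counted among the 77.

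Of 27 tested genes of assembly and rRNA modification, 15 were higher and 12 lower (median 0.014). Tfb1m, which methylates the small rRNA, had 3.33 ± 0.318 against 2.81 ± 0.206 (log2 difference 0.18, SE 0.0888) with separate groups, and Mettl5, whose product acts on cytosolic rRNA, had 1.71 ± 0.510 against 2.30 ± 0.370 (log2 difference −0.29, SE 0.149). The 14 translation factors were 9 higher and 5 lower (median 0.032), with the elongation factor gene Tufm at 27.4 ± 2.51 against 25.8 ± 1.33, Mrrf, for ribosome recycling, at 3.96 ± 0.204 against 4.25 ± 0.0950, and Guf1, a GTPase that acts on the ribosome, at 2.73 ± 0.513 against 3.13 ± 0.0863. The 21 tested genes of mitochondrial tRNA charging, which are aminoacyl-tRNA synthetases and the amidotransferase subunits Qrsl1, Gatb and Gatc, were 15 higher and 6 lower (median 0.026). Gatc had 21.9 ± 1.45 against 19.5 ± 0.413 (log2 difference 0.16, SE 0.0667) with separate groups and was named after its values were seen. Among them Mars2, for methionine, had 0.966 ± 0.208 against 1.40 ± 0.168 (log2 difference −0.29, SE 0.116) with separate groups. Lars2, for leucine, had 62.6, 93.6 and 21.8 in the high and 26.01, 8.98 and 29.3 in the low libraries, and its groups overlapped despite the difference in means (59.3 ± 36.01 against 21.4 ± 10.9).

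Genes of mitochondrial DNA transcription and replication were 9 higher and 11 lower (median −0.009). The polymerase gene Polrmt had 8.45 ± 0.428 against 8.33 ± 0.320 and Tfam, which packages mitochondrial DNA and starts its transcription, 5.73 ± 0.393 against 5.79 ± 0.632. Elac2, which cuts tRNAs out of the transcripts, had 13.5 ± 0.308 against 12.02 ± 0.472 with separate groups (log2 difference 0.15, SE 0.0609), and Hsd17b10, part of mitochondrial RNase P, had 16.5 ± 1.23 against 18.98 ± 2.65 (log2 difference −0.18, SE 0.105). The 13 regulators of nuclear genes for mitochondria were 7 higher and 6 lower (median 0.026). Of the factors whose motifs are shown above, Nrf1 had 2.32 ± 0.123 against 2.19 ± 0.0633 FPKM (log2 difference 0.056, SE 0.0803), Gabpa 3.51 ± 0.672 against 3.995 ± 0.565 (log2 difference −0.15, SE 0.132) and Yy1 12.8 ± 0.888 against 13.4 ± 0.978 (log2 difference −0.063, SE 0.0778), all with overlapping groups. Creb1 had 2.45 ± 0.216 against 3.02 ± 0.136 (log2 difference −0.22, SE 0.0843) with separate groups, and Myc had 1.92 ± 0.349 against 2.32 ± 0.230 (log2 difference −0.19, SE 0.114).

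Markers of other cell types differed between the libraries as well. The 18 choroid plexus markers summed to 83.96, 115 and 48.1 FPKM in the high and 1358, 86.6 and 4230 in the low libraries. On the log2(FPKM + 1) scale the 16 tested were all lower in the high group. For Slc13a4 that difference was only −0.008, and its mean FPKM was higher there (5.81 ± 4.78 against 5.31 ± 3.74). Their highest member, Ttr, had 62.3, 102 and 33.5 in the high and 1290, 73.5 and 4016 in the low libraries, so low libraries 1 and 3 held most of this RNA. Markers of ependymal cells and motile cilia were lower in the high group in all 8 tested (median −0.87). Groups were separate in 7 of the 8 (87.5%, against 14.9% of all genes tested). All 8 had an unadjusted p under 0.05 by limma, against 8.39% of all genes. These 8 markers, of 11 listed, summed to 11.9, 14.7 and 13.5 in the high and 29.5, 21.8 and 43.7 in the low libraries, with low library 2 also above every high library. Their highest member, Rsph1, had 4.76, 5.29 and 4.62 against 7.65, 5.25 and 12.3. All 5 blood markers were lower in the high group, with overlapping groups, and summed to 186, 114 and 121 against 253, 133 and 225 (Hbb-bs 87.5 ± 23.5 against 131 ± 40.9).

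The 12 oligodendrocyte and myelin markers summed to 462, 389 and 444 in the high and 354, 383 and 392 in the low libraries. All 12 were higher in the high group (median 0.19), and 5 had separate groups (41.7%, against 14.9% of all genes tested). Mbp had 129 ± 7.87 against 111 ± 4.86. The 9 tested meningeal markers were 8 higher and 1 lower, and the 10 in the table summed to 1115, 213 and 606 in the high and 69.9, 356 and 83.1 in the low libraries (Ptgds 612 ± 434 against 152 ± 156). Astrocyte markers were 4 higher and 6 lower (Atp1b2 158 ± 6.21 against 142 ± 5.67), microglial markers 6 and 4 (C1qb 39.4 ± 0.825 against 34.8 ± 1.21), endothelial and mural markers 7 and 3 (Cldn5 21.9 ± 1.93 against 19.2 ± 2.14) and neuronal markers 8 and 5 (Snap25 238 ± 22.7 against 233 ± 6.34). Of 14 markers of the medial and subpallial amygdala, 12 were in the table and 4 of 9 tested were higher, with Npy the highest at 92.4 ± 7.48 against 82.2 ± 14.1 FPKM. Lhx6, Esr1 and Otp of that list were named after their values were seen. Otp had the largest difference of the 9 tested, at 2.74 ± 0.886 against 1.40 ± 0.251 FPKM, higher in the high group with separate groups. Its log2 difference was 0.615 (SE 0.172, adjusted p = 0.548 by limma). Lhx6 had 8.47 ± 0.938 against 8.66 ± 0.611 FPKM, with overlapping groups. Esr1, whose mean of 0.857 FPKM was below the level required for testing, had 0.652 ± 0.185 against 1.06 ± 0.116, with separate groups. Neocortical excitatory markers were 2 higher and 8 lower (Slc17a7 191 ± 59.6 against 198 ± 30.2). No marker was listed at 0, and by limma 0 markers passed. With low libraries 1 and 3 left out, added after seeing the data, the 77 genes had a median of 0.033, 48 were higher, and 40 (51.9%) had separate groups, against 50.7% of all genes in that setting. The part of the other cell types in the differences of the 77 genes was not tested.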

How the data were processed

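FPKM per gene were deposited by the authors for 6 libraries, 3 per group, with fastp, HISAT2 and StringTie on GRCm38 per the submitters' processing notes, without versions or settings. The authors' deposited table also holds a log2 fold change, equal to log2 of the ratio of mean FPKM, and a p-value, equal to that of an equal-variance test on FPKM, in all 13170 genes within 1e-06. FPKM hold no counts, so the number of reads behind each value is unknown, and only the depth of the libraries relative to each other was derived, from the FPKM steps of 1428 genes under 1.5 FPKM. Genes with a mean of at least 1 FPKM (12026) were tested on log2(FPKM + 1) with limma 3.58.1 in R 4.3.3 (variance trend, 2-sided, Benjamini-Hochberg over all genes, threshold 0.05), and every adjusted p is from it. Python 3.11.15 was used otherwise. The test was checked on simulated data with noise drawn for each gene independently, which do not hold variation that genes share within a library. Groups were taken from the labels.

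The members, lists and alternatives were chosen with earlier results of these data known. Named are the 12 genes per direction with the smallest p, the 3 highest and 3 lowest by level, Mrps18a, Mrps18b, Mrps18c, Mrpl10, Mrpl11 and Mrpl12, set pathway genes with the 2 smallest p per list, and the highest marker of each list. Outside this rule, Mrpl36, Mrpl46, Mrpl48, Mrps10, Mrps11, Mrps25, Mrps27 and Mrps36 were named after their values were seen. So were Gatc, Lhx6, Esr1, Otp, Slc13a4 and the head-to-head neighbours. Alternatives were other pseudocounts, filters and scalings, array weights, no trend, robust fitting, a replicate block, removal of a GC and length trend (splines with 5 degrees of freedom), and each library left out. Marker genes that the table does not list were not analysed here. In 20 entries a symbol had been turned into a date, and these were tested but not named.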

Additional observations from a re-analysis of the deposited data

How the results depend on the processing

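No setting called a gene by limma, among the 77 or among all genes (at an unadjusted p under 0.05, 361 to 1567 of all genes), and the smallest adjusted p of the 77 ran from 0.226 with array weights to 0.979 without low libraries 1 and 3, where the lone low library is assumed to vary like the others. The median log2 difference stayed positive in every setting, from 0.023 to 0.068, and 41 to 56 of the 77 genes were higher where each library was left out in turn. Genes with separate groups numbered 19 to 27 (24.7% to 35.1%, where all genes tested had 22.1% to 28.5%) with each library left out, and 40 (51.9%, against 50.7%) without low libraries 1 and 3. Of the 50 genes without overlapping exons, 29 were higher and 6 had separate groups. Other scalings gave 8 to 11 genes with separate groups (10.4% to 14.3%, against 14.4% to 15.3% of all genes). Correlations of same-numbered deviations were −0.0939, −0.206 and −0.156, so no pairing by replicate number was seen. With 3 libraries a group these values do not settle whether the samples were paired. With the replicate number as a block 0 genes were called, and the smallest adjusted p of the 77 by limma was 0.757. In this balanced layout the block can change only the standard errors and p-values. The median of 0.051 and the 48 higher genes therefore stayed the same by construction. So did the 12 genes with separate groups (15.6%, against 14.9% of all genes). With the GC and length trend removed as well, 0 genes were called. The values then were 0.051, 49 and 11 (14.3%, against 13.2% of all genes). Of the named genes, 27 of 32 members and 16 of 22 others kept their sign in every setting. Without low libraries 1 and 3, the sign changed for Chchd1 (−0.171), Gadd45gip1 (−0.048), Mrpl10 (0.008), Mrpl52 (−0.046), Mrps34 (0.031) and Yy1 (0.027). With the GC and length trend removed, with or without the block, it changed for Mrpl11 (−0.002), Polrmt (−0.012), Ptcd3 (0.029) and Tfam (0.053). Array weights gave Chchd1 −0.030 and Mrpl11 −0.016, and Tfam was 0.002 with median centring and 0.003 with quantile normalization. With single libraries left out, Chchd1 ranged from −0.074 (without low 3; −0.012 without high 2) to 0.151, Mrpl11 from −0.008 (without high 2; −0.002 without low 2) to 0.055, Mrpl33 from −0.160 to 0.053 (without high 1), Polrmt from −0.013 (without high 1) to 0.052 and Tfam from −0.072 to 0.061 (without low 2; 0.037 without high 1). The causes were not tested. With 3 libraries a group and no read counts, differences within the reported intervals could not be resolved.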

Other observations

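Genes of the mitochondrial ribosome often lie head to head with another gene. In the GENCODE M21 annotation of GRCm38, 23 of the 77 (29.9%) start within 1000 bases of a gene on the other strand that runs the opposite way, with an overlap of at most 200 bases, against 1454 of 13019 protein-coding genes of the deposited table (11.2%). Of 22 such neighbours in the table, 14 had a log2 difference of the same sign as the ribosomal protein gene. Of the 77 genes 62.3% were higher in the high group, and of all genes tested 50.1%. The share of same signs among other pairs of genes was not computed, and whether neighbours vary together was not tested. Mrpl54 and Apba3, whose starts lie 26 bases apart, had differences of 0.21 and 0.16. Mrpl36 shares its start region with Ndufs6, a subunit of respiratory complex I, and both had a difference of 0.064. Mrps12 and Sars2, which encodes the mitochondrial synthetase for serine, lie 172 bases apart and had differences of 0.15 and −0.033. Mrps18c and Helq, 29 bases apart, had −0.17 and 0.14. Mrps11 and Mrpl46, of the small and the large subunit, overlap each other at their starts and had differences of 0.079 and 0.13. None of these genes passed the test by limma, and reads of the overlapping pairs may not be separated.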
